A study of Mus musculus with 8 samples.

Results

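The transcription of genes for sperm formation rests on a small set of factors that male germ cells make during and after meiosis. The 10 genes described here, *Crem*, *Fhl5*, *Rfx1*, *Rfx2*, *Rfx3*, *Rfx4*, *Sox5*, *Sox30*, *Tbpl1* and *Taf7l*, were taken by name from the 21058 genes of a pachytene spermatocyte RNA-seq table after its Entrez identifiers were matched to mouse symbols, and all 10 were found. CREM binds cAMP response elements in promoters of spermatid genes, and FHL5, also called ACT, is a LIM-domain protein that serves as its coactivator in the testis. RFX proteins bind the X-box, an element found in promoters of genes for cilia and flagella. SOX30 and SOX5 bind DNA through an HMG box. TBPL1, also called TRF2, resembles the TATA-binding protein TBP, and TAF7L is a germ cell paralog of the TFIID subunit TAF7.

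RNA-seq covered 8 libraries, 4 of them *Arid1a* WT and 4 *Arid1a* cKO, made from pachytene spermatocytes purified from adult mouse testes by Sta-Put, which separates cells by sedimentation at unit gravity. ARID1A is a subunit of the BAF chromatin remodeller. Mutant males (*Arid1a* cKO) had the genotype *Arid1a* fl/fl; *Stra8-Cre* Tg/0, in which Cre is made from spermatogonia onward, and the *Arid1a* WT males were *Arid1a* fl/fl or *Arid1a* fl/+ without Cre, so floxed alleles were present in both groups. The study's methods and results describe cells pooled from several males and incomplete excision, so that spermatocytes still expressing ARID1A remain in the *Arid1a* cKO samples. By the same methods, the pooled Sta-Put fractions were mostly, but not wholly, pachytene spermatocytes. The comparison asks which transcripts differ in abundance between such fractions from *Arid1a* cKO and *Arid1a* WT males. As Cre acts before pachynema, it does not time an effect of ARID1A loss to that stage.

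Libraries held 15850961 to 22044507 estimated counts. Abundance is given as CPM, in which counts are scaled to a common TMM-adjusted library size, and calls rest on edgeR's quasi-likelihood test over 17643 genes, with a threshold of 0.05 on the p adjusted by Benjamini-Hochberg. Calls were very common in this comparison. In either direction 74% of the genes tested were called, with 36.5% higher and 37.5% lower in *Arid1a* cKO, and the CPM of the genotypes did not overlap for 68.9%. Markers of testis cell types also differed between the genotypes, and all 9 markers of the labelled cell type were detected in both. Summed CPM of 13 round and elongating spermatid markers was 2570 to 2840 in *Arid1a* WT and 8360 to 8660 in *Arid1a* cKO, and 12 of the 13 were called higher. Of 9 pachytene and diplotene markers, 6 were called lower and 1 higher, and their sum was 8530 to 9390 in *Arid1a* WT and 5700 to 5760 in *Arid1a* cKO. Leptotene and zygotene markers summed to 1420 to 1750 and to 879 to 974, with 4 of 8 called higher and 4 lower. The most abundant of them, *Sycp2*, had mean levels of 1004 CPM in *Arid1a* WT and 317 CPM in *Arid1a* cKO and weighs heavily in that sum. The median log2 fold change of these 8 was 0.32. Spermatogonial markers summed to 106 to 110 and to 164 to 174, with 8 of 9 called higher. All 10 Sertoli cell markers were called lower, at 569 to 639 and 175 to 183, and all 7 Leydig cell markers were too, at 58.9 to 61.8 and 7.18 to 7.48. Peritubular markers (11.6 to 14.9 and 17.7 to 20.5, 3 of 4 called higher) and macrophage and blood markers (4.8 to 5.82 and 11.5 to 13.8, 5 of 7 called higher) were low. For macrophage and blood markers the ratio of *Arid1a* cKO to *Arid1a* WT was 2.41 by summed CPM and 1.54 by summed TPM. No listed marker in the table was at 0 in all libraries of a genotype. Each of the 8 sums separated the genotypes (exact permutation test over 70 assignments, two-sided, p = 0.0286, which is the smallest value possible). The part of these cell type differences in the values below was not tested, and in bulk RNA more cells of a type and more RNA per cell cannot be told apart.

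*Arid1a* itself measured 105, 129, 121 and 98.8 CPM in *Arid1a* WT and 76.4, 81.0, 82.9 and 78.3 CPM in *Arid1a* cKO. All 4 mutant libraries were below all 4 controls, and the log2 fold change was -0.51 ± 0.075 (SE, edgeR, adjusted p = 2.31e-05). Only part of the gene is floxed, so the count over the whole gene is a partial check of the labels.

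Of the 10 spermiogenic factors, 8 were called higher in *Arid1a* cKO, against 36.5% of all genes tested, and 0 were called lower, against 37.5%. The 10 were chosen with earlier results of these data known, so this contrast is a description and not an independent test. The CPM ranges of the genotypes were apart for 9 of the 10, beside 68.9% of all genes. Their median log2 fold change was 1.43, and that of all genes tested was -0.020. The factors fell into separate ranges of change. *Rfx1*, *Sox5*, *Fhl5*, *Taf7l* and *Rfx3* had between 3.41 and 5.54 times the *Arid1a* WT abundance, *Sox30* and *Crem* both had 2.12 times, *Tbpl1* had 1.17 times, and *Rfx2* and *Rfx4* were not called. Among all genes tested, 3.26% had a higher log2 fold change than *Rfx1* and 20.4% a higher one than *Crem*.

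**Figure D1:**
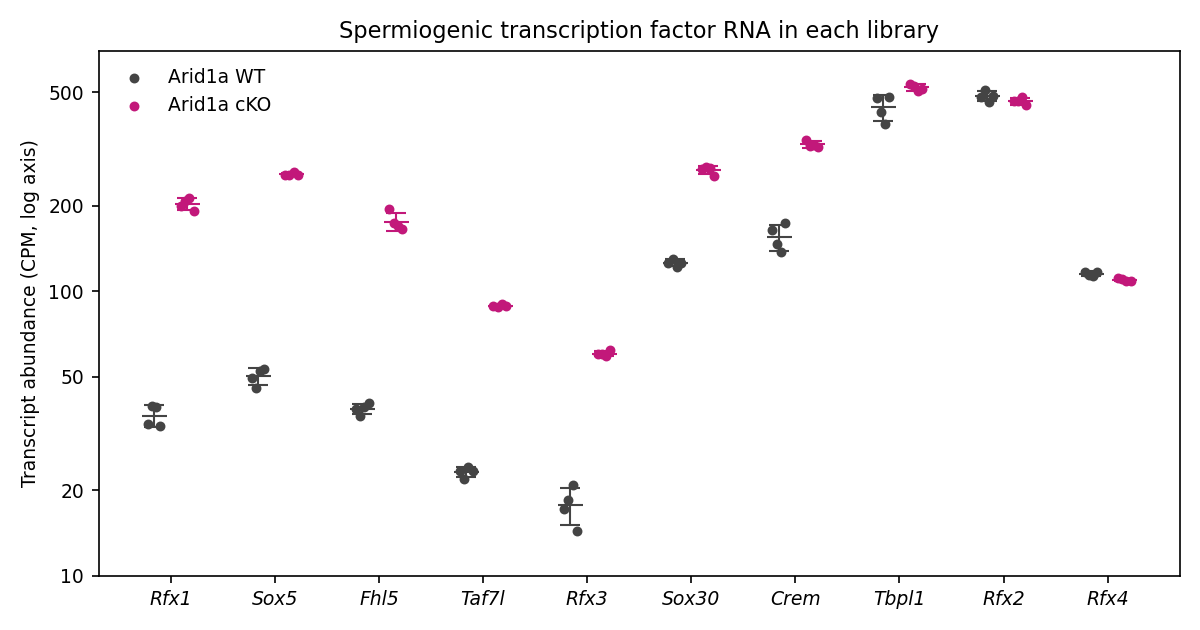
CPM of each spermiogenic transcription factor (log axis) in the 4 *Arid1a* WT (grey) and 4 *Arid1a* cKO (magenta) libraries, with a horizontal bar for the mean and an error bar for 1 SD. For the 8 genes from *Rfx1* to *Tbpl1* each magenta point lies above the grey points of its gene, while the ranges of *Rfx2* overlap and those of *Rfx4* lie close, at 109 to 111 and 113 to 117 CPM.

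*Crem* encodes the master activator of post-meiotic genes, and the same gene also makes repressor isoforms, which a gene-level count sums. Its RNA measured 164, 146, 137 and 173 CPM in *Arid1a* WT and 341, 325, 326 and 321 CPM in *Arid1a* cKO. The lowest mutant library was well above the highest control. *Crem* was higher by 1.08 ± 0.067 on the log2 scale (edgeR, adjusted p = 1.87e-09). Its coactivator *Fhl5* measured 38.4, 36.5, 39.1 and 40.3 CPM in *Arid1a* WT and 194, 173, 170 and 165 CPM in *Arid1a* cKO. Controls were close together, and every mutant library lay far above them, at a log2 fold change of 2.18 ± 0.060 (edgeR, adjusted p = 2.25e-13). GENCODE M21 annotates 39 *Crem* transcripts of 290 to 2931 bases, and the mean effective transcript length weighted by abundance was 804 ± 29.5 bases in *Arid1a* WT and 825 ± 15.0 in *Arid1a* cKO (SD, n = 4), with overlapping ranges. These lengths do not separate activator from repressor isoforms.

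Partners and relatives of CREM were listed separately (13 genes). Of them 6 were called higher, 5 lower and 2 neither, with a median log2 fold change of 0.094. For this list and the other lists below, the shares to read beside the counts are the 36.5% of all genes tested that were called higher and the 37.5% called lower. The highest were *Camk4*, a kinase of CREM, at 2.29 ± 0.055 (SE, edgeR, adjusted p = 8.18e-14), *Kif17*, a kinesin that governs where FHL5 sits in the cell, at 2.27 ± 0.052 (edgeR, adjusted p = 5.91e-14), and *Creb3l4*, at 2.14 ± 0.052 (edgeR, adjusted p = 8.28e-14). The calls of the closest paralogs of *Crem* depended on the scale. By counts, *Creb1* fell from 28.8 ± 3.47 to 16.6 ± 0.967 CPM (SD, n = 4), which is -0.80 on the log2 scale (edgeR, adjusted p = 1.15e-06), and *Atf1* was at 115 ± 7.74 and 123 ± 0.967 CPM, not called (edgeR, adjusted p = 0.121). With transcript length offsets *Creb1* was not called, at -0.12 (edgeR, adjusted p = 0.312), and *Atf1* was called higher, at 0.38 (edgeR, adjusted p = 9.57e-05). *Atf1* was also called higher with DESeq2, at 0.12 (adjusted p = 0.0308), and in the other settings given in the closing section. Among the coactivators in this list, some of them not named here, *Crtc3* and *Crtc2* were called lower, at -1.05 and -0.78, and *Crebbp* was called higher, at 0.78. *Creb3* was called lower, at -0.60. In the FHL family, *Fhl4*, itself a testis gene, rose by 0.32 ± 0.074 from 2563 to 3205 CPM (edgeR, adjusted p = 0.00123). *Fhl2* was also called higher, by 1.34 but at only 0.442 and 1.12 CPM, the X-linked *Fhl1* was called lower at -0.57, and *Fhl3*, at 0.28, was not called (edgeR, adjusted p = 0.0907), though it was without *Arid1a* WT replicate 3, at 0.48 (edgeR, adjusted p = 7.18e-05).

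Genes usually placed in the CREM programme, not all of them limited to spermatids, were counted as a class of 18. Among these 16 were called higher and 2 lower, and the median log2 fold change was 2.08. The protamines *Prm1* and *Prm2*, which package sperm DNA, rose by 2.17 ± 0.063 and 2.10 ± 0.053, and the transition proteins *Tnp1* and *Tnp2* by 2.23 ± 0.063 and 2.16 ± 0.052. The kinases *Tssk1* and *Tssk2* and the sheath protein *Akap4* rose by 2.30, 2.26 and 2.38. The genes called lower were the pyruvate dehydrogenase subunit *Pdha2* at -0.81 ± 0.057, and the lactate dehydrogenase *Ldhc* at -0.19 ± 0.078 with overlapping groups (edgeR, adjusted p = 0.0421). The count called lower was 1 in place of 2 with DESeq2 and in other fits named in the closing section. Of these 18 genes 6 are also among the 13 spermatid markers above, so the class and the markers do not give separate evidence.

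*Rfx2*, the RFX gene with the highest level per length in *Arid1a* WT, encodes a factor needed for spermatid development. It measured 483, 509, 462 and 485 CPM in *Arid1a* WT and 465, 465, 482 and 450 CPM in *Arid1a* cKO. The groups overlapped. The log2 fold change was -0.059 ± 0.048 (edgeR, adjusted p = 0.282), with a 95% interval from -0.18 to 0.059, which reaches down to a modest fall. On library sizes without TMM it was called lower at -0.16 (edgeR, adjusted p = 0.00201), and by limma on log2(TPM + 1) at -0.20 (adjusted p = 0.00218). Over 10 alternatives its adjusted p ran from 0.00201 to 0.653. Library sizes without TMM also moved the median of all genes tested from -0.020 to -0.12.

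*Rfx1*, a broadly expressed family member, had the highest log2 fold change of the 10 factors by counts, while *Sox5* was above it by limma on log2(TPM + 1), at 2.29 beside 2.23 for *Rfx1*. *Rfx1* measured 34.0, 39.4, 39.2 and 33.6 CPM in *Arid1a* WT and 199, 207, 213 and 191 CPM in *Arid1a* cKO. Each mutant library, down to 191 CPM, was far above the highest control of 39.4 CPM, at a log2 fold change of 2.47 ± 0.065 (edgeR, adjusted p = 1.5e-13). *Rfx3*, known for motile and primary cilia, was the least abundant, at 17.2, 18.4, 20.8 and 14.4 CPM in *Arid1a* WT and 60.0, 59.9, 59.2 and 62.0 CPM in *Arid1a* cKO. Controls differed from each other more than mutants did, and the groups stayed far apart, with a log2 fold change of 1.77 ± 0.085 (edgeR, adjusted p = 9.88e-11). The length-aware alternatives put *Rfx3* at up to 2.28.

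*Rfx4* gave different answers by counts and by level per length. It measured 117, 114, 113 and 117 CPM in *Arid1a* WT and 111, 110, 109 and 109 CPM in *Arid1a* cKO. The ranges did not touch but lay close, and the log2 fold change of -0.069 ± 0.042 was not called (edgeR, adjusted p = 0.153, 95% interval -0.17 to 0.034). In TPM, which divide counts by transcript length, it stood at 64.7, 72.3, 78.0 and 71.0 in *Arid1a* WT and 117, 117, 116 and 109 in *Arid1a* cKO. All mutant libraries were higher on that scale. With offsets for transcript length the sign turned, to 0.78 ± 0.053 (edgeR, adjusted p = 2.84e-08), and limma on log2(TPM + 1) gave 0.68 (adjusted p = 1.25e-06), while without TMM or length offsets *Rfx4* was called lower at -0.17 (edgeR, adjusted p = 0.000874). Over 10 alternatives the adjusted p ran from 2.84e-08 to 0.463.

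**Figure D2:**
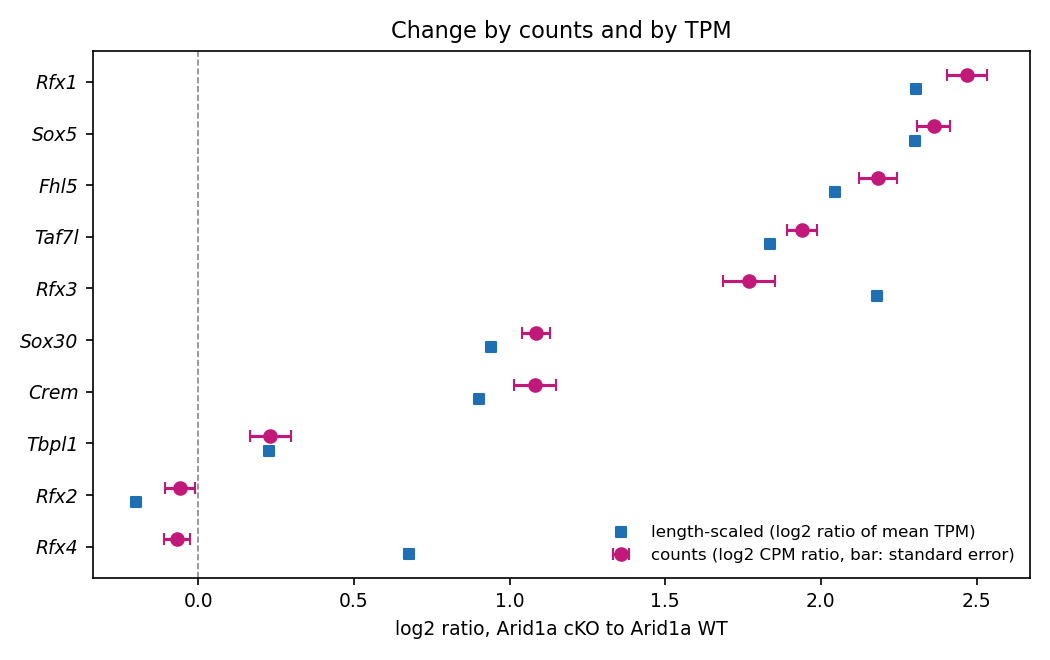
Log2 ratio of *Arid1a* cKO to *Arid1a* WT for each factor by counts (magenta circles, bars of 1 SE) and by mean TPM (blue squares). The pair of marks lies on either side of 0 only for *Rfx4*, and the TPM mark of *Rfx3* is to the right of its count mark, whereas most others are slightly to the left.

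An estimated count divided by TPM is proportional to the mean effective length of the transcripts a gene used in that library. The scale was set from 732 genes with a single annotated transcript, whose median log2 length differed by -0.0034 between genotypes. *Rfx4* had mean effective lengths of 2511, 2317, 2154 and 2312 bases in *Arid1a* WT and 1220, 1232, 1234 and 1295 bases in *Arid1a* cKO. No mutant library came near a control. The log2 difference was -0.83 with lengths centred on each library's median (limma, adjusted p = 5.62e-05), where 50.8% of 13958 genes were called, and -0.90 ± 0.046 on the single-transcript scale (limma, adjusted p = 2.97e-05), where 17.6% of 12358 genes were called and 14.4% were called shorter. On the latter scale 0.672% of genes had a lower log2 difference than *Rfx4*. The annotated *Rfx4* transcripts are 3 of 3274 to 3534 bases, all protein-coding, and 3 processed transcripts of at most 1490 bases. If these were the transcripts quantified, the long ones made up at least 40.8% to 58.2% of *Rfx4* RNA molecules in the *Arid1a* WT libraries and at most 39.2% to 41.7% in the *Arid1a* cKO libraries. These bounds meet only between the control at 40.8% and the mutant at 41.7%.

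*Rfx3* used shorter transcripts as well. Mean effective length was 4317, 4312, 4830 and 3441 bases in *Arid1a* WT and 2858, 2900, 2882 and 2858 bases in *Arid1a* cKO. The controls were spread widely and all exceeded the mutants. The log2 difference was -0.48 centred (limma, adjusted p = 0.0059) and -0.54 ± 0.096 on the single-transcript scale (limma, adjusted p = 0.00794). Its 2 longest annotated transcripts, of 8988 and 9146 bases, made up at least 9.07% to 32.1% in *Arid1a* WT and at most 32.4% to 32.9% in *Arid1a* cKO, so these bounds do not separate the genotypes. Smaller differences were seen for *Tbpl1*, from 1094 ± 14.5 to 1001 ± 16.1 bases (SD, n = 4; log2 difference -0.13 ± 0.016, limma, adjusted p = 0.00154 on the single-transcript scale), and *Sox5*, from 1322 ± 20.9 to 1246 ± 6.5 bases (-0.086 ± 0.013, limma, adjusted p = 0.00454). On the centred scale *Tbpl1* was at -0.061 (limma, adjusted p = 0.00942), and *Sox5* was not called at -0.017 (adjusted p = 0.218). The centred *Tbpl1* call was lost with the replicate number as a block, as given in the closing section. The other factors had overlapping lengths. Centring called *Crem*, *Fhl5*, *Rfx1*, *Rfx2* and *Sox30* longer by 0.061 to 0.11, including *Sox30*, which has 1 annotated transcript and was called by 0.066 (limma, adjusted p = 0.000129), and none of the 4 with several transcripts was called on the single-transcript scale (limma, adjusted p of 0.398 to 0.93).

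**Figure D3:**
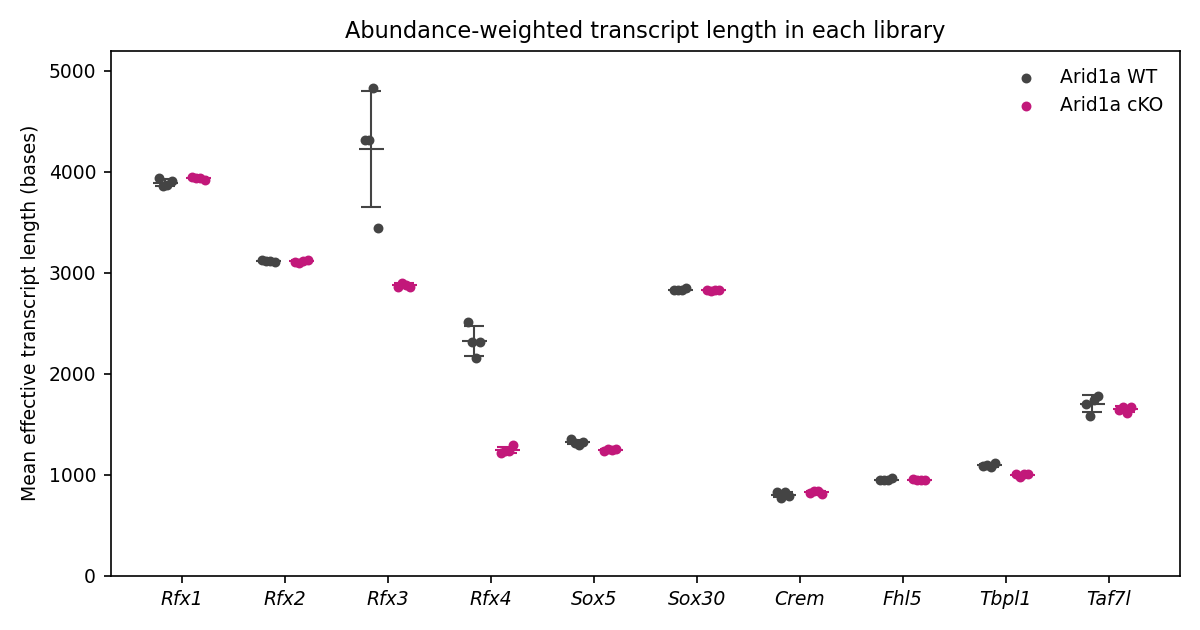
Mean effective transcript length in bases for each factor in the 4 *Arid1a* WT (grey) and 4 *Arid1a* cKO (magenta) libraries, with means and 1 SD. *Rfx4* drops from 2154 to 2511 bases in controls to 1220 to 1295 in mutants, *Rfx3* drops with widely spread controls, and the remaining genes lie nearly level.

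Both *Rfx4* promoters listed by RefSeq for GRCm38.p6 are printed because of the length difference of this gene: the first (plus strand) lies at the start of the 3534-base transcript, and the second, inside the gene, is the start of both the 3274-base coding and the 1490-base processed transcript, so a length alone does not say which start was used. The *Rfx1*, *Rfx2* and *Rfx3* promoters follow, since *Rfx1* and *Rfx3* rose and *Rfx2*, like *Rfx4*, was not called. Each run covers 250 bases before to 50 after the start site, read 5′ to 3′ on the gene's strand. Capitals mark matches on either strand to TGACG (part of the cAMP response element), GTTGCC (part of the X-box) and AACAAT (a SOX site).
*Rfx4* promoter, chr10:84755798-84756097, plus strand: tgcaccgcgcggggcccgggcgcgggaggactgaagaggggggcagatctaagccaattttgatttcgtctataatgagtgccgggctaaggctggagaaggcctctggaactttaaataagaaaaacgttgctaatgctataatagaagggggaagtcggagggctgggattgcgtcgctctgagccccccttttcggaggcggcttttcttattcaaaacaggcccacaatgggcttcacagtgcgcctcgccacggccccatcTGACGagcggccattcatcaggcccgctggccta
*Rfx4* promoter, chr10:84837898-84838197, plus strand: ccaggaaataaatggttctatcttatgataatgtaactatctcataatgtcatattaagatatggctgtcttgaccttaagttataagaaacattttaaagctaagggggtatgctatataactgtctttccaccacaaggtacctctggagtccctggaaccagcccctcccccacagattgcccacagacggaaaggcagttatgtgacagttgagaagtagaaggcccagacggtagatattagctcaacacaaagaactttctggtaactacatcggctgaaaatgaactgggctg
*Rfx1* promoter, chr8:84066586-84066885, plus strand: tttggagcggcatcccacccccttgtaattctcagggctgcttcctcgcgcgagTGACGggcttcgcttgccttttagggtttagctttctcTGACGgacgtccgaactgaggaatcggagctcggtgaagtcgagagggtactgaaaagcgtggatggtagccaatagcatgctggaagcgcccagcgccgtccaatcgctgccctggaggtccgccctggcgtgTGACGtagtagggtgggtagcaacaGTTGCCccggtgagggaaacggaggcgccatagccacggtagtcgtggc
*Rfx2* promoter, chr17:56830959-56831258, minus strand: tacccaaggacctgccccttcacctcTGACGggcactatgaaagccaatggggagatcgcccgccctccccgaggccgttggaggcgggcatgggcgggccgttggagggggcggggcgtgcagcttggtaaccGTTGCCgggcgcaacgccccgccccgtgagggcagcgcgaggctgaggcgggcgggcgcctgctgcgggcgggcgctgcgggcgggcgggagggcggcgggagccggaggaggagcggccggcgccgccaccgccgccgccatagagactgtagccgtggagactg
*Rfx3* promoter, chr19:28011117-28011416, minus strand: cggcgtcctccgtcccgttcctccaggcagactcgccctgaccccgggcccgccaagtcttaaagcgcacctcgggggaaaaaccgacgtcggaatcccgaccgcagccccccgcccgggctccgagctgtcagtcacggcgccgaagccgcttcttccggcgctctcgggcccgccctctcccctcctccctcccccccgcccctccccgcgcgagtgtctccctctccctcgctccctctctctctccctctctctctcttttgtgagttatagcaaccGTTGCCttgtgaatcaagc

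Across 9 of the factors, 11 promoters were read, without *Crem*. TGACG was present in 20.8%, GTTGCC in 12.5% and AACAAT in 10.7% of 32851 mouse promoters of the same length, and the complete element TGACGTCA, in 1.79% of promoters, was in none of these 11. *Rfx1* held TGACG 3 times and GTTGCC once at position 2 from its start. *Rfx2*, not called, held 1 of each, at -224 and -116, and *Rfx3* held GTTGCC at 32. Of the *Rfx4* promoters, the upstream one had TGACG at 17 and the internal one held no match. TGACG and GTTGCC were present both in the promoter of *Rfx1*, which rose, and in that of *Rfx2*. A link between these letters and the changes in abundance was not tested. A match is a run of letters and not a measured binding site.

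Other RFX genes and cofactors split, with 3 called higher, 3 lower and 1 neither of 7, and a median log2 fold change of -0.0041. *Foxj1*, a factor that acts with RFX proteins on motile cilia genes, had the largest rise of them, from 39.1 ± 2.46 to 296 ± 16.3 CPM (SD, n = 4) at 2.92 ± 0.062 (edgeR, adjusted p = 4.97e-14). *Rfx8* rose by 0.53 ± 0.062, and *Rfx6* by 2.40 ± 0.24 at 0.526 and 2.83 CPM. *Rfx5* and its partner *Rfxap*, which act on MHC class II genes, fell to log2 fold changes of -1.92 ± 0.099 and -2.0 ± 0.063, and *Rfx7* fell by 0.64 ± 0.064, so members of this family moved in both directions. The class of 39 ciliary and flagellar genes, to which RFX target genes belong, had 16 called higher, 18 lower and 5 neither, with a median log2 fold change of -0.067 beside -0.020 for all genes. The highest in this class were the tektins *Tekt2* and *Tekt4*, filament proteins of the sperm tail, at 1.92 and 1.79, *Bbs5* at 1.62, and *Rsph14* at 1.10. The lowest were *Bbs1* at -1.67, the dynein heavy chain *Dnah2* at -1.58, *Bbs2* at -1.36, and *Ift20* at -1.23.

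*Sox30*, required for the onset of the spermatid programme, measured 126, 130, 122 and 126 CPM in *Arid1a* WT and 268, 273, 272 and 255 CPM in *Arid1a* cKO. Replicates were tight in both groups, which did not overlap. The log2 fold change was 1.09 ± 0.046 (edgeR, adjusted p = 2.26e-11). *Sox5* measured 49.5, 45.6, 52.4 and 53.3 CPM in *Arid1a* WT and 257, 257, 262 and 256 CPM in *Arid1a* cKO. Mutant libraries were nearly equal and all were above every control, at a log2 fold change of 2.36 ± 0.055 (edgeR, adjusted p = 6.15e-14). *Sox5* has long forms in many tissues and a short form in the testis. Its annotated transcripts that start at the internal site are 614 to 1734 bases long, while the coding ones that start upstream are 2526 to 7243 bases. The mean effective length of 1322 ± 20.9 bases in *Arid1a* WT and 1246 ± 6.5 in *Arid1a* cKO (SD, n = 4) was below the length of every upstream coding form. The RefSeq promoter at this internal site (minus strand), printed since that start serves the short forms, has 1 match, GGCAAC, the reverse complement of GTTGCC, at position -16.
*Sox5* promoter, chr6:143947057-143947356, minus strand: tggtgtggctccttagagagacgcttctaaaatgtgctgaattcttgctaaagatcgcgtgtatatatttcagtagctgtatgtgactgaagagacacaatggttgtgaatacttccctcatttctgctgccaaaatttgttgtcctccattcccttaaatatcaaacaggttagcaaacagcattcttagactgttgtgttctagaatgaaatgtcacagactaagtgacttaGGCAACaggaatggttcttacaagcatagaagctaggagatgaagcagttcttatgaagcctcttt

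The *Sox30* promoter had no match to any of these letters, and neither did those of *Tbpl1* and *Taf7l*. Of the 2 *Fhl5* promoters, 1 held AACAAT at -44 and 25. Among 17 other SOX genes tested, 5 were called higher, 6 lower and 6 neither, with a median log2 fold change of -0.24. *Sox6*, the closest paralog of *Sox5* and also a testis gene, rose from 26.9 ± 1.02 to 120 ± 7.64 CPM (SD, n = 4), at 2.17 ± 0.058 (edgeR, adjusted p = 1.84e-13). *Sox11*, *Sox10* and *Sox17* rose by 1.24, 0.99 and 0.75, and *Sox3*, the fifth called higher, by 0.61. *Sox13*, in the same subgroup as *Sox5*, was not called at 3.16 and 2.67 CPM. *Sox18*, *Sox8* and *Sox7* fell by 1.83, 1.68 and 1.63 on the log2 scale, from mean levels of 4.30, 7.03 and 4.65 CPM. *Sox9*, also called lower at -1.32, is among the Sertoli cell markers above too, so the SOX list and those markers are not fully separate. *Sox2*, at only 0.142 and 0.0286 CPM, passed narrowly at -2.13 (edgeR, adjusted p = 0.0466), and DESeq2 did not call it (adjusted p = 0.128).

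*Tbpl1*, needed for normal spermatid chromatin, had the highest mean TPM of the 10 in both genotypes. By counts it measured 476, 427, 386 and 483 CPM in *Arid1a* WT and 535, 528, 505 and 514 CPM in *Arid1a* cKO. The controls were spread widely, and the lowest mutant, at 505 CPM, stood a little above the highest control. The log2 fold change was 0.23 ± 0.066 (edgeR, adjusted p = 0.006), with a 95% interval from 0.069 to 0.39. It was called in all 10 alternatives, at 0.14 to 0.31. *Taf7l* is X-linked, and X-linked genes are silenced in pachytene spermatocytes by meiotic sex chromosome inactivation. Its RNA measured 23.3, 21.9, 24.1 and 23.4 CPM in *Arid1a* WT and 88.5, 88.2, 89.9 and 88.7 CPM in *Arid1a* cKO. Replicates were tight in both genotypes, which lay far apart, and the log2 fold change was 1.94 ± 0.049 (edgeR, adjusted p = 1.05e-13).

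Of 20 other TBP, TFIID, TFIIA and TFIIB genes tested, 11 were called higher, 7 lower and 2 neither, with a median log2 fold change of 0.16. *Taf7*, the autosomal gene that resembles *Taf7l*, fell by 0.87 ± 0.077 on the log2 scale from 38.9 ± 4.04 to 21.3 ± 1.29 CPM (SD, n = 4) (edgeR, adjusted p = 1.05e-07). *Tbp* fell by 0.43 ± 0.049 (edgeR, adjusted p = 1.7e-06), and the germ cell TFIIA subunit *Gtf2a1l* rose by 0.62 ± 0.069. The largest changes in this set were the rise of *Taf9b*, *Taf13* and *Taf1*, by 2.13, 1.42 and 0.96, and the fall of *Taf2* and *Taf8*, by 2.03 and 1.22. *Taf9b* and *Taf1* are X-linked, as are *Akap4* and *Sox3* above, also called higher, and *Fhl1*, called lower. The share of all X-linked genes called is not given here. Whether X inactivation has a part in these values or in that of *Taf7l* was not tested. *Tbpl2* was below the filter and not tested. The transcription factors *Mybl1* and *Tcfl5*, which act in pachytene spermatocytes upstream of spermiogenic genes, were both called lower, at -1.30 ± 0.058 and -0.50 ± 0.054.

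**Figure D4:**
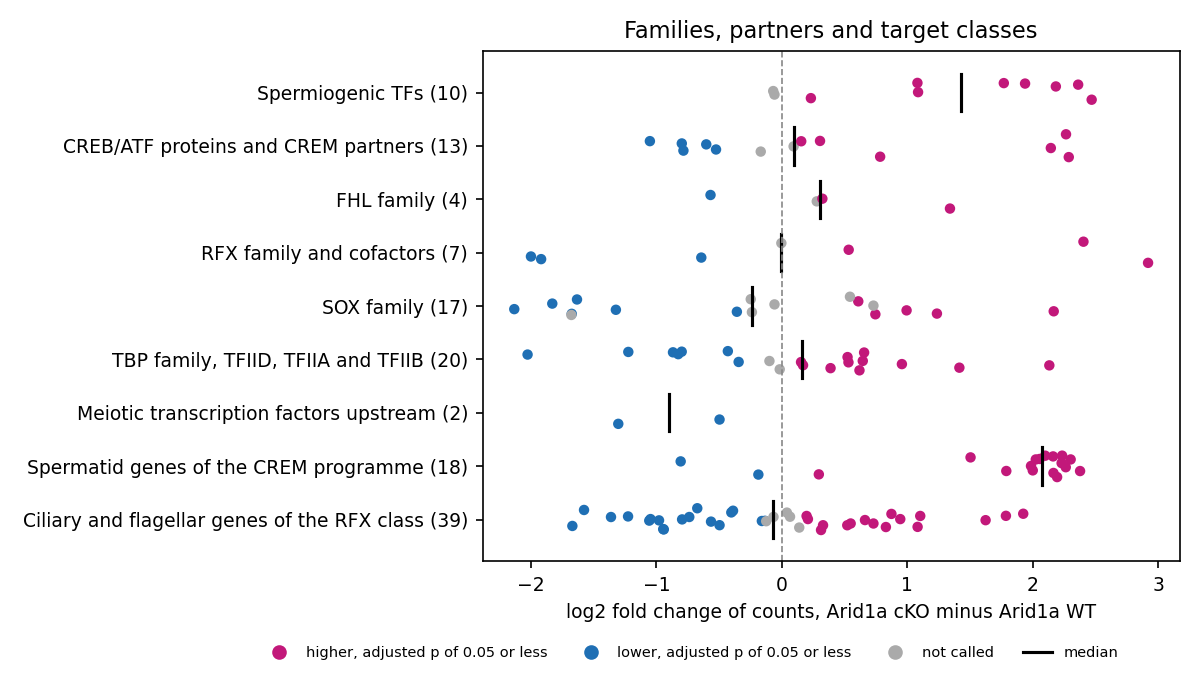
Log2 fold change of counts, *Arid1a* cKO minus *Arid1a* WT, for the 10 factors and each related list, with 1 point per gene, black bars for medians and colours for the edgeR call. The 10 factors (median 1.43) and the CREM programme class (median 2.08) lie mostly to the right of 0, whereas the families and the ciliary class spread to both sides of it.

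On the level per length, the order of the factors changed between genotypes. In *Arid1a* WT, mean TPM ran from *Tbpl1* (580 ± 34.8, SD, n = 4) through *Crem* (277 ± 26.4), *Rfx2* (223 ± 11.1), *Rfx4* (71.5 ± 5.45), *Sox30* (63.8 ± 2.52), *Fhl5* (58.2 ± 2.43), *Sox5* (54.6 ± 4.61), *Taf7l* (19.6 ± 1.03) and *Rfx1* (13.5 ± 1.75) to *Rfx3* (6.01 ± 0.407). *Rfx4* and *Sox30* overlapped in this order, and *Fhl5* and *Sox5* did too. In *Arid1a* cKO the order was *Tbpl1* (676 ± 21.1), *Crem* (517 ± 12.4), *Sox5* (269 ± 4.54), *Fhl5* (241 ± 14.3), *Rfx2* (194 ± 6.42), *Sox30* (123 ± 4.24), *Rfx4* (115 ± 3.62), *Taf7l* (69.99 ± 1.98), *Rfx1* (66.9 ± 3.46) and *Rfx3* (27.3 ± 0.67), with *Taf7l* and *Rfx1* overlapping. *Sox5* and *Fhl5* were thus below *Rfx2* in every control library and above it in every mutant library. The 10 genes summed to 1308 to 1426 TPM in *Arid1a* WT and 2251 to 2329 TPM in *Arid1a* cKO. The listed genes held 78.07% to 81.14% of all TPM in *Arid1a* WT and 88.09% to 88.64% in *Arid1a* cKO, so TPM are not on fully equal totals between genotypes.

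The patterns closest to 3 of the factors over the 8 libraries were found among 12996 genes by the root mean square difference of log2 CPM after each gene's mean was subtracted. For *Crem* these were *Fdft1* (0.0192), *4930453N24Rik* (0.0237) and *Ints12* (0.0285). *Rfx2* was closest to *Golga4* (0.0248), *Acin1* (0.0267) and *Wdr62* (0.0309), and *Sox30* to *Nup98* (0.026), *Aste1* (0.0267) and *Ncs1* (0.0276). These are descriptions over 8 libraries that differ mainly by genotype.

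Reads of the factors were mostly their own. At most 1.16% of the 31-base words in the transcripts of any factor (*Rfx2*) occurred in another gene. Exons of *Crem*, *Rfx1*, *Sox5* and *Tbpl1* overlapped a gene on the opposite strand over 8.01%, 0.653%, 9.25% and 12.4% of their bases, and whether the quantification used strand is not given in the sources used here, so those 4 counts may hold some antisense reads. The replicates were named as separate samples by the labels, and where they came from one purification the p-values measure only technical spread.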

How the data were processed

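RNA-seq of 4 *Arid1a* WT and 4 *Arid1a* cKO samples of purified pachytene spermatocytes was used, grouped by their labels, and 0 columns were left unused. Reads had been quantified by the authors with Salmon and summarised per Entrez gene with tximport (mm10), which gave the estimated counts they deposited, with no correction for depth or transcript length. The TPM deposited by the authors are relative to the whole library. Their table of fold changes and p-values was not used. Of 21058 genes, 21036 had a RefSeq GRCm38.p6 record, which gave symbols and coordinates.

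After rounding, 17643 genes reached 10 counts over all libraries and entered edgeR 4.0.16 (R 4.3.3; TMM, glmQLFit and glmQLFTest with genotype alone), with Benjamini-Hochberg adjusted p of 0.05 or less as the threshold. Standard errors were obtained as log2 fold change over root F, and the 95% interval uses 6 degrees of freedom. Mean effective transcript length was the estimated count divided by TPM, tested with limma 3.58.1 on the log2 scale for genes with at least 10 counts in each library, centred on each library's median. The scale from single-transcript genes of GENCODE M21, over genes with 2 or more transcripts, was chosen after seeing the data. Marker sums were compared by exact permutation. Libraries held 15850961 to 22044507 counts, and their sampling error is part of the spread used by the tests.

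The tests were tried on simulated data. Of 200 genes changed 2-fold among 17643, edgeR recovered 96% with 3.52% false calls, and of 200 lengths changed by 0.5 log2 among 12358, limma recovered 79% with 7.06% false calls. In the data themselves 74% of genes were called, and 17.6% of lengths on the single-transcript scale. The simulations changed far fewer, so their rates may not hold for this comparison.

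The alternatives were DESeq2 1.42.0, DESeq2 size factors in edgeR, no TMM, TMM from autosomal genes, filterByExpr, no filter beyond 1 count, transcript length offsets, limma on log2(TPM + 1) and log2(TPM + 0.1), the replicate number as a block, an adjusted p of 0.01, at least 30 counts in each library for lengths, summed TPM for markers, and each library left out.

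The 10 genes and all lists were chosen with earlier results of these data known. Named were the 10 genes, *Arid1a*, close paralogs, *Gtf2a1l*, *Prm1*, *Prm2*, *Tnp1*, *Tnp2*, up to 4 called genes with the largest change in each direction of a list, and the 3 nearest patterns of *Crem*, *Rfx2* and *Sox30*. *Sox3*, *Sox9* and *Sycp2* fall outside this rule and were chosen after their values were seen. Protein sequences and the *Crem* promoter were not used here. Figures were drawn in Python 3.11.15 with matplotlib 3.10.9.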

Additional observations from a re-analysis of the deposited data

Results flagged for a closer look

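Over 56 groups of 4 libraries, 3 held a library that stood far from the other 3 (Dixon's ratio above 0.829), and chance gives 2.8. The mean transcript length of *Sox30* was high in *Arid1a* WT replicate 4 (ratio 0.919, 2845 bases beside 2827 to 2828). That of *Tbpl1* was low in *Arid1a* cKO replicate 2 (ratio 0.849, 977 bases beside 1007 to 1012). The summed Leydig cell markers were high in *Arid1a* cKO replicate 1 (ratio 0.935, 7.48 CPM beside 7.18 to 7.2). All 3 differences were small beside the values themselves.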

How the results depend on the processing

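The calls of the 8 factors that rose held under all 10 alternatives and with each library left out, and the count called higher was 9, with *Rfx4* added, under transcript length offsets and both limma settings. *Rfx2* was called lower at -0.16 without TMM, at -0.20 by limma on log2(TPM + 1) and at -0.20 on log2(TPM + 0.1). *Rfx4* was called lower at -0.17 without TMM, and its sign turned to 0.78 with transcript length offsets, 0.68 with log2(TPM + 1) and 0.68 with log2(TPM + 0.1). The factors called lower were accordingly 2 without TMM and 1 with either limma setting, in place of 0. CREM programme genes called lower numbered 1, in place of 2, with DESeq2, DESeq2 size factors, autosomal TMM, filterByExpr, an adjusted p of 0.01 and the replicate block, and 1 to 2 with libraries left out, *Ldhc* being the call lost. Among other genes named from the lists, *Atf1* was called higher with DESeq2, DESeq2 size factors, autosomal TMM, length offsets, both limma settings and without *Arid1a* WT replicate 2, *Fhl3* was called higher with the replicate block (0.29) and without *Arid1a* WT replicate 3, *Sox13* was called lower without TMM (-0.34), and *Creb1* was not called with length offsets or either limma setting. *Sox2* was not called with DESeq2, no filter beyond 1 count, length offsets, an adjusted p of 0.01, the replicate block, or with 1 library left out unless that was *Arid1a* cKO replicate 2 or *Arid1a* WT replicate 3, and filterByExpr left it untested.

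On the single-transcript scale the log2 length differences of *Fhl5*, *Rfx2* and *Taf7l* changed sign from the centred values, to -0.0079, -0.0016 and -0.043, those of *Crem* and *Rfx1*, 0.039 and 0.016, were no longer called, and that of *Sox5*, -0.086, became called. Centring itself moves every gene by the same amount in a library. With each library left out, the centred value of *Crem* ran from 0.089 to 0.13 and lost its call without *Arid1a* cKO replicate 2 or 3, that of *Taf7l* ran from -0.0063 to 0.045, and the single-transcript value of *Rfx2* ran from -0.0040 to 0.0013. The *Rfx4* and *Rfx3* values on that scale stayed called, from -0.93 to -0.86 and from -0.64 to -0.48.

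Same-numbered libraries of the genotypes shared only a number, with correlations of their deviations from -0.14 to 0.16. With the replicate number as a block, 6429 genes were called higher and 6671 lower, and the centred length of *Tbpl1*, -0.061, was no longer called (limma, adjusted p = 0.0529). *Rfx3* had the fewest counts of the 10 factors, 316 to 415 per *Arid1a* WT library, and how far depth limits its transcript lengths was not tested.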
